A study of Mus musculus with 12 samples.

Results

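The comparison described here set superficial zone (SFZ) chondrocytes of mice with conditional loss of Runx3 against SFZ chondrocytes of their littermate controls, across every measured gene. It used 6 of the 12 RNA-seq libraries in the table of the Runx3 experiment, 3 labelled R3-Cntl and 3 labelled R3-cKO, and the 6 libraries of deep zone (DZ) chondrocytes served only as a comparison. R3-Cntl mice were Runx3 fl/fl and R3-cKO mice were Col2a1-Cre; Runx3 fl/fl, both C57BL/6 and 5 days old, so the controls also carried the floxed alleles and no group was free of them. The paper names the background of the mice as C57BL/6J. Cre was driven by Col2a1, the gene of the main cartilage collagen, so its activity was not limited to the superficial zone. SFZ cells were released from dissected joint ends of the femur and tibia by trypsin and a first collagenase digestion, and DZ cells by a longer digestion of the remaining cartilage. According to the paper, the isolated cells were plated on fibronectin and grown as a monolayer in every experiment. Genes were kept where at least 3 of the 6 SFZ libraries reached 1 FPKM (fragments scaled to transcript length and library size), which left 11537 of 17536 genes. From these, the genes were singled out whose groups did not overlap, meaning that all 3 R3-cKO values lay above, or all 3 below, every R3-Cntl value.

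Runx3 is a DNA-binding transcription factor of the Runt family, which acts with its partner Cbfb and shares its binding motif with Runx1 and Runx2. In cartilage, Runx2 and Runx3 are known for their part in chondrocyte maturation and hypertrophy. The superficial zone is the thin outermost layer of articular cartilage, and its chondrocytes secrete lubricin, the product of Prg4, which lowers friction at the joint surface.

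The labelled zone and the labelled genotype were checked first. In the controls, Prg4 read 22.24, 8.38 and 7.13 FPKM in SFZ against 1.4, 1.2 and 1.5 FPKM in DZ, so that the zones did not overlap in the controls. The gene of cartilage collagen, Col2a1, ranged from 3049 to 9229 FPKM over the 6 SFZ libraries, and the gene of the chondrocyte transcription factor, Sox9, from 40.1 to 78.3 FPKM. Of the 13 tested genes of a list of 14 superficial zone genes, Prg4, which was chosen for its difference, alone had groups that did not overlap between genotypes (7.69%, against 2.4% of all tested genes). Runx3 read 10.73, 5.98 and 6.65 in R3-Cntl against 11.83, 9.07 and 3.42 FPKM in R3-cKO. The library with the highest and the library with the lowest Runx3 were both labelled R3-cKO, and the log2 fold change was -0.04 ± 0.43 (SE, n = 3 per group). The value covers the whole transcript and not the floxed part alone, so the directions below refer to the libraries labelled R3-cKO. Runx1 (log2 fold change 0.03 ± 0.29), Runx2 (0.13 ± 0.14) and Cbfb (-0.01 ± 0.11) had overlapping groups as well. The value of Runx2 was 0.011 without R3-Cntl library 3 and 0.20 without R3-Cntl library 1.

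The libraries also differed in transcripts of other cell types and of the Y chromosome. Summed Y-linked transcripts read 42.9, 12.1 and 52.4 in R3-Cntl against 28.3, 0.06 and 0.03 FPKM in R3-cKO. All 4 tested X-linked genes that escape X inactivation had a higher mean in R3-cKO, against 5480 of all 11537 tested genes. Their median log2 fold change was 0.22, and their groups overlapped. The sex of the mice was thus in part confounded with the genotype. Summed macrophage markers, 16 of 20 of them tested, read 258.9, 211.3 and 10.3 in R3-Cntl against 211.1, 21.0 and 94.7 FPKM in R3-cKO. Summed skeletal muscle markers, 7 of 30 of them tested, reached 306.9 FPKM in R3-Cntl library 2 against 16.5 to 25.2 FPKM in the other 5 libraries, and erythroid markers stayed at or below 0.56 FPKM in all 6. The steps between the lowest values put the depth at an estimated 26.7 to 29.9 fragments per kilobase at 1 FPKM in the SFZ libraries.

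No gene passed the test over all genes. limma on log2(FPKM + 1), with Benjamini-Hochberg adjustment over the 11537 genes, called 0 genes at an adjusted p under 0.05, the lowest adjusted p being 0.9997. At an unadjusted p under 0.05 it called 34 genes (0.295%), 21 higher (0.182%) and 13 lower (0.113%) in R3-cKO. The genes over 2-fold among them numbered 3 (0.026%), namely Prg4, Mmp13 and Ccl2, and all 3 were lower in R3-cKO. The groups did not overlap in 277 genes (2.4%), of which 167 were higher (1.45%) and 110 lower (0.953%) in R3-cKO. These genes were chosen on the same values, so what follows describes them, and their limma values are not given as support. After quantile normalization the groups did not overlap in 336 genes, 238 higher and 98 lower, and 188 of these were among the 277. At an unadjusted p under 0.05 there were then 54 genes, 42 higher and 12 lower. The excess of higher genes without overlap depended on single libraries. There were 302 higher and 435 lower without R3-Cntl library 3, and 1507 higher and 2167 lower without R3-cKO library 2. Without R3-cKO library 1 there were 386 higher and 399 lower. With any of the remaining libraries left out, the higher genes stayed more numerous. With 3 against 3 libraries the smallest exact two-sided permutation p is 0.1, which each of the 277 genes reached. Under a random assignment of the libraries to the groups, a gene would reach it at a rate of 0.1, and the 2.4% found lies below that rate. Likewise, the 0.295% of genes at an unadjusted limma p under 0.05 lies below a rate of 0.05. Genes vary together across libraries, and neither share was tested against its rate.

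Non-overlap went with small differences for most of these genes. The median absolute log2 fold change of the 277 genes was 0.16, and the median gap between the nearest libraries of the 2 groups was 0.031 log2 units. Only 11 of them, 5 higher and 6 lower, differed by more than 0.5 log2 units. Their median residual SD within groups was 0.078, against 0.21 over all tested genes, so the non-overlapping genes were mostly ones with little spread. The reverse also held, since 80 tested genes had an absolute log2 fold change over 1 and only Prg4 and Mmp13 of these had groups that did not overlap.

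**Figure D1:**
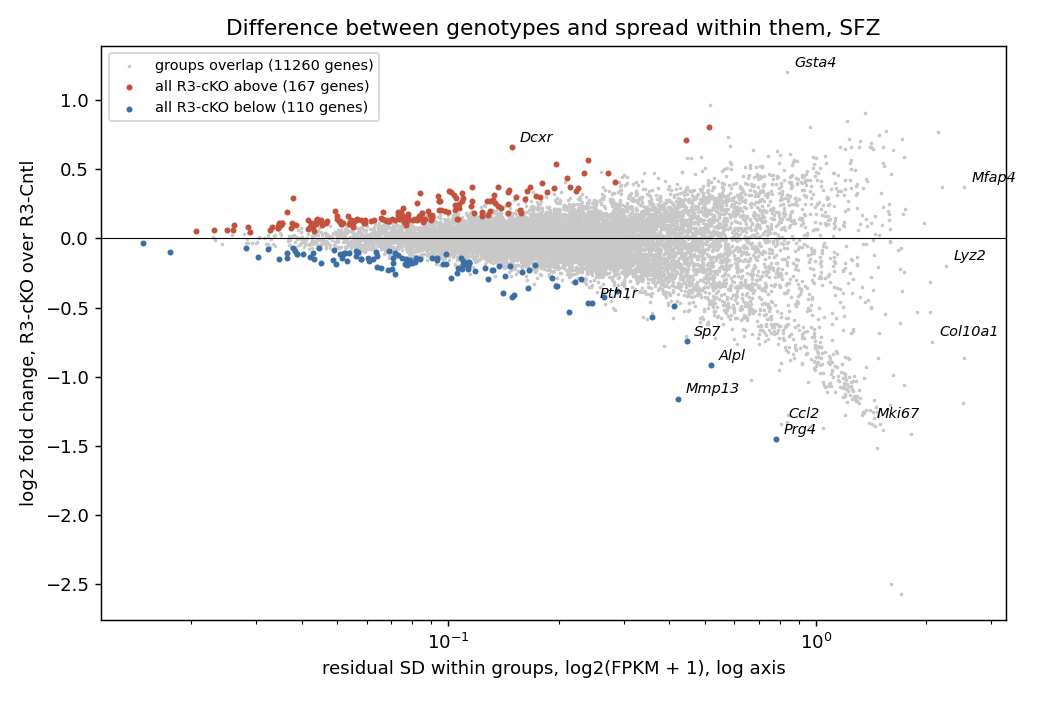
Each point is a tested gene, with the residual SD within groups on a log axis and the log2 fold change on log2(FPKM + 1) on the vertical axis. The 277 genes whose groups did not overlap lie mostly at a small SD and a small difference, Prg4, Mmp13, Alpl, Sp7 and Dcxr stand out from them, and Mki67, Lyz2, Col10a1 and Mfap4 lie at a large SD.

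Among the non-overlapping genes lower in R3-cKO and averaging at least 5 FPKM, Prg4, Mmp13, Alpl and Sp7 had the largest differences. Prg4 read 22.24, 8.38 and 7.13 in R3-Cntl against 6.95, 2.47 and 2.13 FPKM in R3-cKO. R3-cKO library 1 lay just under R3-Cntl library 3, with a gap of 0.03 log2 units, and in both groups library 1 had the highest value. The log2 fold change was -1.45 ± 0.52 (SE, n = 3 per group), and it ranged from -1.88 to -0.98 when each library was left out in turn. Without both R3-cKO libraries 2 and 3, in which Y-linked transcripts were near 0, it was -0.61, and with a pseudocount of 5 in place of 1 it was -0.93.

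Mmp13, a collagenase made by hypertrophic chondrocytes that cleaves type II collagen, read 117.52, 130.11 and 149.67 in R3-Cntl against 84.30, 62.22 and 37.90 FPKM in R3-cKO. Its groups were the furthest apart among the lower genes averaging at least 5 FPKM, with a gap of 0.47 log2 units and a log2 fold change of -1.16 ± 0.29. The range with each library left out was -1.42 to -0.85, and the value without both R3-cKO libraries 2 and 3 was -0.64. Mmp13 was the only one of 23 tested matrix proteases and inhibitors whose groups did not overlap (4.35%, near the 2.4% of all tested genes), and the list as a whole had a median log2 fold change of 0.04. That median ranged from -0.21 without R3-cKO library 3 to 0.21 without R3-Cntl library 2 or R3-cKO library 2, and was -0.12 without R3-Cntl library 1. Other proteases of the matrix, such as the membrane collagenase Mmp14 (log2 fold change 0.51 ± 0.45), the gelatinase Mmp2 (0.47 ± 0.50) and the aggrecanase Adamts5 (-0.19 ± 0.34), had overlapping groups. Without R3-cKO library 3 the log2 fold change of Mmp14 was 0.03, and without R3-cKO library 2 it was 0.83.

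Alpl, the tissue-nonspecific alkaline phosphatase that frees phosphate for mineral, read 36.56, 69.25 and 33.90 in R3-Cntl against 32.02, 23.39 and 15.97 FPKM in R3-cKO. R3-Cntl library 2 stood above the rest, and the groups were separated by 0.08 log2 units. The log2 fold change was -0.92 ± 0.35, and -0.60 without R3-Cntl library 2. It was -0.45 without both R3-cKO libraries 2 and 3, where that of Sp7 was -0.48 and that of Pth1r -0.30. Sp7, which encodes osterix, a transcription factor of osteoblasts and mature chondrocytes, read 11.83, 11.99 and 10.15 in R3-Cntl against 7.84, 8.95 and 3.50 FPKM in R3-cKO. Its log2 fold change of -0.74 ± 0.31 became -0.39 without R3-cKO library 3, the lowest one. Pth1r, the receptor for parathyroid hormone and PTHrP that holds back hypertrophy, read 30.23, 28.13 and 25.68 in R3-Cntl against 22.45, 23.26 and 15.07 FPKM in R3-cKO. Here too R3-cKO library 3 was the lowest, and the log2 fold change of -0.47 ± 0.18 became -0.28 without it.

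**Figure D2:**
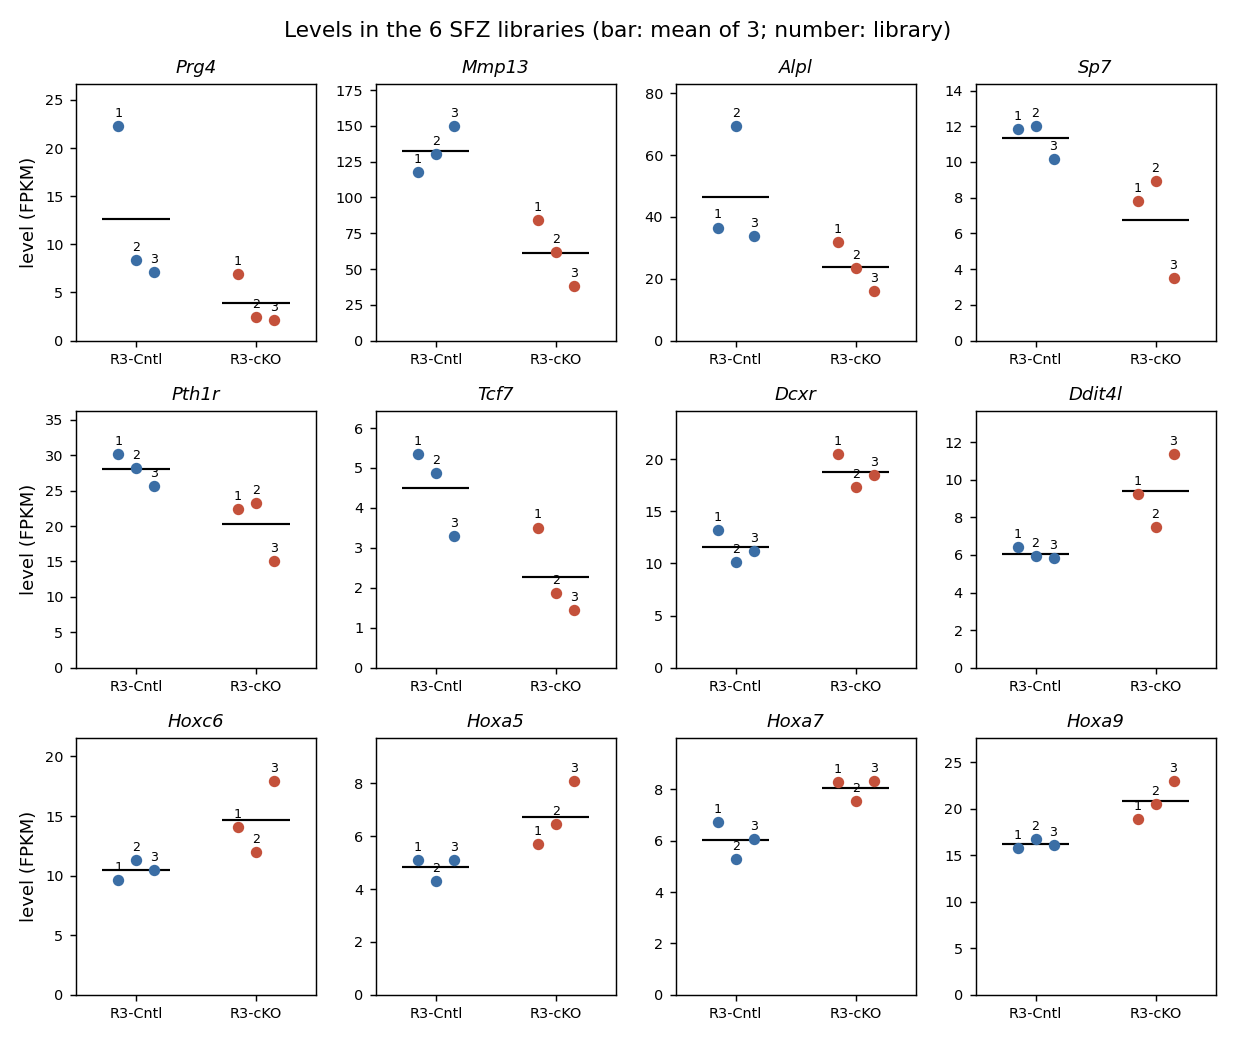
Levels in FPKM of 12 genes in the 6 SFZ libraries, each point a library with its number and each bar the mean of 3, on axes that start at 0. The groups of Tcf7 overlap, those of the other 11 genes do not, and library 1 has the highest Prg4 level in both genotypes.

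These genes were members of a list on hypertrophy and mineralization with 19 tested genes. In 4 of the 19 (21.1%, against 2.4% of all tested genes) the groups did not overlap, all 4 of them lower in R3-cKO, namely Mmp13, Alpl, Sp7 and Pth1r. The list had 15 members with a lower and 4 with a higher mean in R3-cKO, and its median log2 fold change was -0.37 against -0.01 over all tested genes. The median was -0.15 without R3-cKO library 3 and -0.20 without R3-Cntl library 1. The list was chosen with earlier results of these data known, and this count gives no independent evidence of its direction. The groups of the other members overlapped, though some of them, such as Ibsp and Bglap, also had a lower mean in R3-cKO. Vegfa, the vascular growth factor of hypertrophic cartilage, had a log2 fold change of -0.02 ± 0.30, and Dlx5, a transcription factor of bone and cartilage, one of -0.03 ± 0.19. Ibsp, the gene of bone sialoprotein, read 9.7, 100.1 and 33.4 in R3-Cntl against 8.8, 12.2 and 19.4 FPKM in R3-cKO. Its difference rested largely on R3-Cntl library 2, with a log2 fold change of -1.27 ± 0.80 that became -0.48 without that library. Without R3-Cntl library 1 the log2 fold change was -2.09. Bglap, the gene of osteocalcin, read 25.8, 12.7 and 8.3 in R3-Cntl against 16.1, 5.2 and 4.2 FPKM in R3-cKO, so that library 1 was the highest of each group.

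Col10a1, the collagen of hypertrophic cartilage, was spread far more within R3-cKO than between the groups. It read 58.73, 38.52 and 74.51 in R3-Cntl against 30.61, 254.69 and 3.67 FPKM in R3-cKO. R3-cKO held both the highest and the lowest library, and the log2 fold change of -0.75 ± 1.36 turned to 0.68 when R3-cKO library 3 was left out and was -2.21 without R3-cKO library 2. Panx3, a channel gene of prehypertrophic and hypertrophic chondrocytes, likewise had its lowest level in R3-cKO library 3, at 6.6 FPKM against 22.3 to 77.5 FPKM in the other 5 libraries.

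Among the 8498 tested genes averaging at least 5 FPKM, 191 had groups that did not overlap (2.25%), 123 higher and 68 lower. Beside Prg4, Mmp13, Alpl and Sp7, the lower ones differed by less than 0.5 log2 units, Pth1r (-0.47) among them. Apart from Pth1r, the 7 of these with the largest differences were R3hcc1l (log2 fold change -0.49 ± 0.28), Pdlim1 (-0.43 ± 0.19), Fhl3 (-0.38 ± 0.21), Taf1d (-0.34 ± 0.15), Bzw2 (-0.31 ± 0.17), Rcl1 (-0.29 ± 0.17) and Cavin3 (-0.29 ± 0.13). Pdlim1 and Fhl3 encode LIM domain proteins, Pdlim1 at the actin cytoskeleton, and Cavin3 a coat protein of caveolae. Several rested on 1 library. R3hcc1l read 6.90, 7.16 and 15 in R3-Cntl against 6.56, 6.32 and 5.77 FPKM in R3-cKO, and its log2 fold change became -0.16 without R3-Cntl library 3. Without R3-cKO library 3, the log2 fold change was -0.22 for Pdlim1, -0.15 for Fhl3, -0.21 for Taf1d, -0.14 for Bzw2 and -0.11 for Rcl1. After Mmp13, Sp7 and Pth1r, the lower genes with the widest gaps between the groups were Evl, an actin regulator, Taf15, an RNA-binding protein, and Arid1a, a subunit of the SWI/SNF chromatin remodeller. Arid1a read 13.61, 13.91 and 13.58 in R3-Cntl against 12.73, 12.18 and 11.90 FPKM in R3-cKO, a small difference (log2 fold change -0.15 ± 0.09) with little spread in either group.

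Tcf7, which encodes TCF1, a transcription factor of Wnt signalling, was lower without being separated. It read 5.36, 4.87 and 3.29 in R3-Cntl against 3.51, 1.86 and 1.45 FPKM in R3-cKO. R3-cKO library 1 lay above R3-Cntl library 3, and the log2 fold change was -0.78 ± 0.27, ranging from -1.04 to -0.60 with each library left out and reaching -0.27 without both R3-cKO libraries 2 and 3. Adding 5 FPKM in place of 1 before taking logs gave -0.39, and adding 0.1 gave -1.02. Tcf7 was chosen for its difference. Of the 33 tested Wnt and TCF genes, 22 had a lower and 11 a higher mean, with a median log2 fold change of -0.09. The median was -0.15 without R3-Cntl library 3 or R3-cKO library 1 and -0.04 without R3-cKO library 2. Ccl2, a chemokine that draws monocytes, read 4.29, 19.08 and 18.28 in R3-Cntl against 2.93, 4.63 and 4.71 FPKM in R3-cKO. R3-Cntl library 1 lay among the R3-cKO libraries, and the log2 fold change was -1.34 ± 0.54. On the threshold itself, Prg4 was the closest gene inside among those averaging at least 5 FPKM with an absolute log2 fold change over 0.5. Ptx3, a secreted pattern recognition protein, was the closest outside, at 100.65, 148.33 and 107.25 in R3-Cntl against 89.89, 100.75 and 35.54 FPKM in R3-cKO.

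Among the genes higher in R3-cKO, Dcxr stood apart. Dcxr encodes dicarbonyl and L-xylulose reductase, a carbonyl-reducing enzyme of the glucuronate pathway, and read 13.20, 10.17 and 11.24 in R3-Cntl against 20.54, 17.29 and 18.50 FPKM in R3-cKO. The libraries of each group lay close together, and the log2 fold change was 0.66 ± 0.13, from 0.58 to 0.75 with each library left out. Of 33 tested genes of redox defence and carbonyl reduction, Dcxr and the aldehyde reductase gene Akr1a1 had groups that did not overlap (6.06%, against 2.4% of all tested genes), and Dcxr had itself been chosen for its difference. Akr1a1 read 319.14, 314.86 and 306.73 in R3-Cntl against 324.65, 330.17 and 350.30 FPKM in R3-cKO, a log2 fold change of 0.09 ± 0.11. That value was 0.062 without R3-cKO library 3 and 0.050 without both R3-cKO libraries 2 and 3. The list's median was 0.04, but -0.02 without R3-Cntl library 1, -0.0017 without R3-cKO library 2 and -0.07 without both R3-cKO libraries 2 and 3. Its member with the largest difference, the glutathione transferase Gsta4, overlapped, at 3.40, 12.48 and 4.30 in R3-Cntl against 10.59, 10.11 and 28.81 FPKM in R3-cKO.

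The start sites of Mmp13 and Dcxr, the genes with the widest gap on the lower and on the higher side, are shown because a Runx motif lies in both, which was seen before they were chosen. The sequences are from RefSeq (GRCm38.p6), which is not the mm9 build used for the values, and run from 250 bases before to 50 bases after the start. Mmp13 lies at chr9:7272264-7272563 on the plus strand and Dcxr at chr11:120727235-120727534 on the minus strand. Capitals mark the motif TGTGGT as it appears on the other strand, beginning at position -118 from the start in Mmp13 and at -80 in Dcxr.
Mmp13: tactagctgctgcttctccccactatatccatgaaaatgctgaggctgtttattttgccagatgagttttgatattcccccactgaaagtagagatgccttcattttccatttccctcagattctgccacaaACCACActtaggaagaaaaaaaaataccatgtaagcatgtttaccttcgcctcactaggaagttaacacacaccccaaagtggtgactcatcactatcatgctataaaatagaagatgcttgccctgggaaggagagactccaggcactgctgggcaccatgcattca
Dcxr: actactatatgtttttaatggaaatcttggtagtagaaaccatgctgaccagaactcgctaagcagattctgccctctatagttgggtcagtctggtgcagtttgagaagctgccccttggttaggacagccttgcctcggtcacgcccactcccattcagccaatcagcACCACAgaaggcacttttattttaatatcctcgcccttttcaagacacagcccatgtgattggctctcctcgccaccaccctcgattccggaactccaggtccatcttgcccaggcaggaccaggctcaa
The letters TGTGGT and TGCGGT were searched on both strands. A match in at least 1 start-site window was found for 20 of 90 lower non-overlapping genes with a promoter (22.2%) and for 23 of 128 higher ones (18.0%). Counted in the same way, 23.9% of the tested genes with a promoter had a match, so neither group held the motif more often than tested genes. Counted by single windows instead, which is not the same measure, 22.4% of all promoters held a match. No match was found in the windows of Alpl, Pth1r, Tcf7 and Hoxa7, and a match describes letters and not a bound site.

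Ddit4l, a relative of the mTORC1 inhibitor Ddit4, came next, at 6.41, 5.96 and 5.85 in R3-Cntl against 9.26, 7.50 and 11.39 FPKM in R3-cKO. Its log2 fold change was 0.54 ± 0.16, and 0.40 without R3-cKO library 3. Cpt1c, a brain-type member of the carnitine palmitoyltransferase family, had a log2 fold change of 0.37 ± 0.12. The orphan nuclear receptor gene Esrra, known for driving mitochondrial genes, had one of 0.37 ± 0.15. Also among the 12 largest differences of the 123 higher genes averaging at least 5 FPKM were Fbxo36 (0.37 ± 0.14), Rab3a (0.37 ± 0.17), Mtmr11 (0.35 ± 0.13) and Spsb2 (0.35 ± 0.11). Without R3-cKO library 3 the log2 fold change became 0.23 for Esrra and 0.19 for Rab3a. Ppox, an enzyme of haem synthesis in mitochondria, had the widest gap after Dcxr. It read 5.85, 6.15 and 5.73 in R3-Cntl against 7.33, 7.42 and 7.66 FPKM in R3-cKO, so that both groups were tight and the log2 fold change was 0.29 ± 0.09. Oxidative phosphorylation genes differed little. Of 77 tested, 59 had a higher mean in R3-cKO and 4 (Cox4i1, Atp5j, Ndufc1 and Ndufa11) had groups that did not overlap (5.19%, against 2.4% of all tested genes). The median log2 fold change was 0.04, and -0.0097 without R3-cKO library 2.

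Hox genes recurred among the higher ones. Hox proteins are homeodomain factors that set position along the body axis and the limb. The list of 24 tested Hox genes was drawn up after their values had been seen and is a description only. The groups did not overlap in 6 of the 24 (25%, against 2.4% of all tested genes), all 6 higher in R3-cKO, and 23 of the 24 had a higher mean, with a median log2 fold change of 0.16 that was 0.20 after quantile normalization and 0.09 without R3-cKO library 3. Hoxa7 read 6.71, 5.28 and 6.05 in R3-Cntl against 8.28, 7.55 and 8.33 FPKM in R3-cKO (log2 fold change 0.37 ± 0.12). Hoxa9 read 15.74, 16.79 and 16.06 in R3-Cntl against 18.89, 20.53 and 23.01 FPKM in R3-cKO (0.34 ± 0.11). Hoxa5 read 5.10, 4.29 and 5.10 in R3-Cntl against 5.69, 6.44 and 8.09 FPKM in R3-cKO (0.40 ± 0.15). These 3 genes are members of the same cluster, and library 3 was the highest of R3-cKO in each. Hoxc6 (0.43 ± 0.16), Hoxd8 (0.19 ± 0.10) and Hoxc5 (0.14 ± 0.13) were the other 3, and without R3-cKO library 3 the values were 0.29 for Hoxc6 and 0.088 for Hoxc5. The more posterior members Hoxa10 (0.09 ± 0.17), Hoxa11 (0.00 ± 0.11) and Hoxc10 (0.01 ± 0.23) had overlapping groups.

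The 277 genes were found without the DZ libraries, in which they were read next, while Alpl and Sp7 are named here because they were separated in both zones. The library numbers match between zones, and the Y-linked gene Ddx3y stayed at or below 0.02 FPKM in both zones of the R3-cKO libraries numbered 2 and 3, so SFZ and DZ libraries of 1 number may come from the same mouse. Of the 107 lower genes tested in DZ, 10 were also lower there without overlap, where 2.72% of the genes tested in both zones were, and 2 (Aff2 and Ift140) were higher. Of the 162 higher genes, 17 were higher in DZ without overlap, where 5.21% were, and 0 were lower. Alpl read 22.9, 34.6 and 51.4 in R3-Cntl DZ against 11.9, 8.4 and 11.4 FPKM in R3-cKO DZ, with a log2 fold change of -1.63 ± 0.29. Sp7 read 12.4, 14.8 and 12.4 in R3-Cntl DZ against 10.5, 7.6 and 6.2 FPKM in R3-cKO DZ (-0.66 ± 0.19). Alpl and Sp7 were the only 2 genes averaging at least 5 FPKM that were separated in the same direction in both zones with an absolute log2 fold change over 0.5 in each. Pth1r, at 77.8, 57.2 and 60.6 in R3-Cntl DZ against 56.2, 35.2 and 35.3 FPKM in R3-cKO DZ, was separated in DZ as well (-0.64 ± 0.22). None passed limma with Benjamini-Hochberg adjustment in DZ, where the adjusted p of Alpl, Sp7 and Pth1r was 0.999.

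Mmp13 was lower in DZ by 1.67 ± 0.80 on the log2 scale but overlapped, since the R3-Cntl values of 51.3, 165.0 and 454.1 FPKM spread widely and R3-cKO read 26.3, 50.6 and 86.2 FPKM. Prg4 had overlapping groups in DZ, where R3-cKO read 5.7, 1.3 and 2.1 FPKM, with a log2 fold change of 0.63 ± 0.38. Library 1 alone stood well above the R3-Cntl DZ values of 1.2 to 1.5 FPKM. The difference between the zones was -2.09 for Prg4, with an adjusted p of 0.999 in the limma model of 12 libraries with a genotype by zone term. That model called 0 of 11765 genes at an adjusted p under 0.05 and 99 at an unadjusted p under 0.05, the lowest adjusted p being 0.999. It treated the 12 libraries as independent and did not account for SFZ and DZ libraries that may share a mouse. Hoxa7 (-0.07 ± 0.14), Hoxc6 (0.04 ± 0.17) and Hoxa5 (0.10 ± 0.17) had log2 fold changes near 0 in DZ, and a difference between zones was not called for them either.

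**Figure D3:**
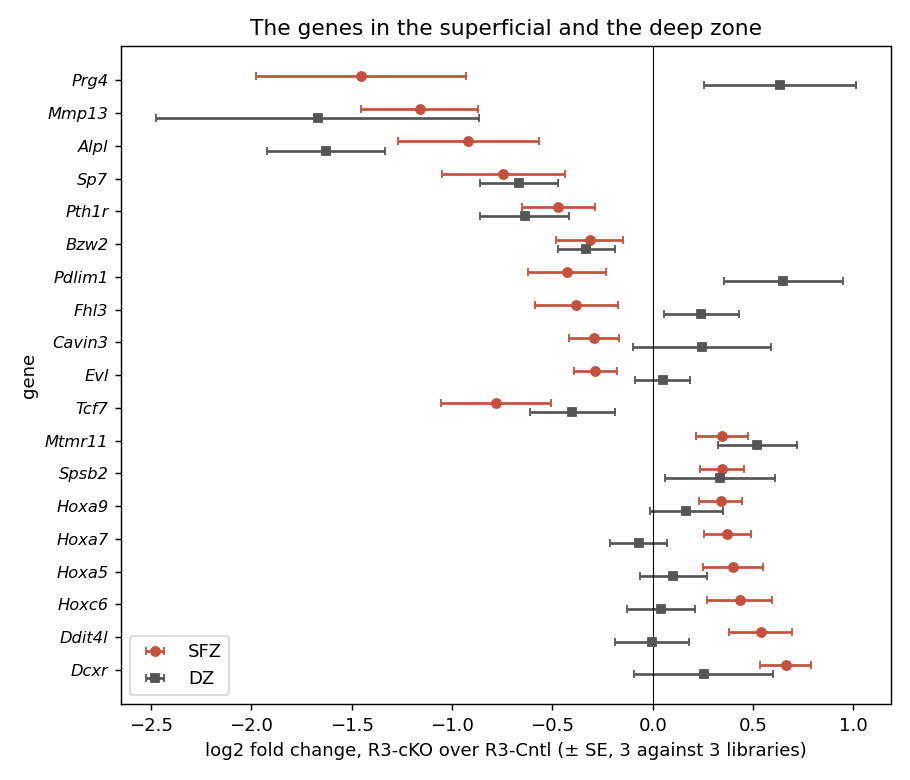
Log2 fold changes on log2(FPKM + 1) with SE for 19 genes, circles for SFZ and squares for DZ, each from 3 against 3 libraries. Alpl, Sp7, Pth1r, Bzw2 and Mtmr11 lie on the same side in both zones with groups that do not overlap, and Prg4 and Pdlim1 lie on opposite sides.

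Libraries of 1 genotype differed more from each other than the genotypes did. Genotype took up 10.1% of the total sum of squares over the tested genes. A first principal component held 57.7% and a second 26.9%, and on the first, R3-Cntl library 3 and R3-cKO library 2 (scores 31.3 and 35.7) lay opposite R3-cKO library 3 (-37.7). The closest pairs crossed the genotypes, with a Pearson r across genes of 0.992 between R3-Cntl 1 and R3-cKO 1 and of 0.989 between R3-Cntl 3 and R3-cKO 2. The least alike pair, R3-cKO 2 and R3-cKO 3, had an r of 0.913. Genes are not independent replicates, and these values describe the libraries. The range within a group exceeded 2 log2 units in 163 genes in R3-Cntl and in 395 genes in R3-cKO.

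Cell division genes were among those that varied within the groups. All 46 tested mitosis genes and all 40 tested S phase genes had a lower mean in R3-cKO, against 6057 of all 11537 tested genes. Their median log2 fold changes were -1.14 and -0.68. The groups overlapped in every one of the 86, while they did not overlap in 2.4% of all tested genes. Mki67, the proliferation marker, read 13.8, 28.8 and 50.5 in R3-Cntl against 8.3, 40.2 and 2.7 FPKM in R3-cKO. R3-cKO library 2 lay among the highest libraries and R3-cKO library 3 was the lowest. Over the mitosis genes, the median deviation from the 6-library mean was -0.33, 0.60 and 1.37 in R3-Cntl and -0.81, 1.10 and -1.95 in R3-cKO. The list's median log2 fold change was -1.93 without R3-cKO library 2, -0.40 without R3-cKO library 3 and -0.72 without R3-Cntl library 3. That of the S phase list was -1.28, -0.31 and -0.37 without the same libraries in turn. Histone genes Hist1h2ap and Hist1h2ao were among the 12 most variable genes, with residual SDs of 2.54 and 2.51, but near-identical copies make their values uncertain.

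Contractile genes ran in a similar order of libraries. Acta2, smooth muscle actin, read 62.3, 357.3 and 333.3 in R3-Cntl against 63.7, 414.1 and 97.8 FPKM in R3-cKO. Tagln, an actin-binding protein of the same cells, read 19.4, 122.8 and 226.4 in R3-Cntl against 25.2, 190.0 and 31.2 FPKM in R3-cKO. Libraries 1 of both groups and R3-cKO library 3 were low and the other 3 were high. Of 16 tested contractile genes, 0 had groups that did not overlap, against 2.4% of all tested genes. All 16 had a lower mean in R3-cKO, against 6057 of all 11537 tested genes, with a median log2 fold change of -0.31. That median rested on single libraries, since it was 0.02 without R3-cKO library 1, -0.0097 without R3-Cntl library 2, -0.04 without R3-Cntl library 3 and -0.11 without R3-cKO library 3, but -0.80 without R3-Cntl library 1 and -0.88 without R3-cKO library 2.

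Cartilage matrix genes had another order, and showed no common difference between genotypes. Acan, the gene of the proteoglycan aggrecan, read 669.7, 127.0 and 243.0 in R3-Cntl against 514.6, 380.3 and 148.5 FPKM in R3-cKO. Col9a2, a chain of type IX collagen, read 541.4, 63.5 and 181.3 in R3-Cntl against 441.6, 158.9 and 69.1 FPKM in R3-cKO. Library 1 was the highest of both groups. Of 24 tested cartilage matrix genes 11 were lower and 13 higher in R3-cKO, with a median of 0.08. The groups did not overlap in 0 of them, against 2.4% of all tested genes. The median turned with single libraries, at 0.47 without R3-Cntl library 1, -0.41 without R3-Cntl library 2 and -0.31 without R3-cKO library 1, while the list's deviation ranged over 1.53 log2 units within R3-Cntl and 1.18 within R3-cKO. Gli1, a target of hedgehog signalling, read 9.1, 1.1 and 1.9 in R3-Cntl against 5.0, 4.4 and 0.3 FPKM in R3-cKO, with library 1 the highest of both groups as well. Of 9 tested hedgehog and PTHrP genes, 8 had a lower and 1 a higher mean in R3-cKO with a median log2 fold change of -0.14, and Pth1r alone had groups that did not overlap (11.1%, against 2.4% of all tested genes). The median was 0.02 without R3-Cntl library 1 and -0.39 without R3-cKO library 2. Over all tested genes 6057 had a lower and 5480 a higher mean. Sfrp5, a secreted Wnt antagonist, read 26.27, 0.48 and 0.71 in R3-Cntl against 19.43, 4.83 and 0.25 FPKM in R3-cKO, so that libraries 1 were again high in both groups.

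Connective tissue, interferon and macrophage genes varied within the groups too. Mfap4, a microfibril-associated protein, read 14.93, 93.80 and 7.31 in R3-Cntl against 10.17, 5.96 and 348.92 FPKM in R3-cKO, and Sfrp2 read 76.3, 321.1 and 46.7 in R3-Cntl against 78.1, 39.0 and 584.0 FPKM in R3-cKO. R3-Cntl library 2 and R3-cKO library 3 were the high ones for both genes, and for the list of 21 fibroblast and tendon genes, whose median log2 fold change was 0.11. That median was 0.38 without R3-Cntl library 2, 0.47 without R3-cKO library 2 and -0.32 without R3-cKO library 3. Bst2, an interferon-induced membrane protein, was highest in R3-cKO library 3 (74.1 FPKM) and lowest in R3-cKO library 2 (5.6 FPKM), with R3-Cntl at 21.8, 48.5 and 10.6 FPKM. Of 15 tested interferon response genes, 0 had groups that did not overlap, against 2.4% of all tested genes. A higher mean in R3-cKO was found for 14 of the 15, against 5480 of all 11537 tested genes. The list's median log2 fold change was 0.14. The median was 0.71 without R3-cKO library 2 and -0.17 without R3-cKO library 3. The list was lowest in R3-Cntl library 3 and R3-cKO library 2, as the macrophage list was, and highest in R3-Cntl library 2 and R3-cKO library 3, as the fibroblast and tendon list was. Lyz2, the lysozyme of myeloid cells, read 126.78, 102.38 and 3.56 in R3-Cntl against 96.26, 8.26 and 43.53 FPKM in R3-cKO. R3-Cntl library 3 and R3-cKO library 2 were the low ones for all 16 tested macrophage genes. In such bulk RNA, fewer cells of a type and less RNA per cell cannot be told apart.

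**Figure D4:**
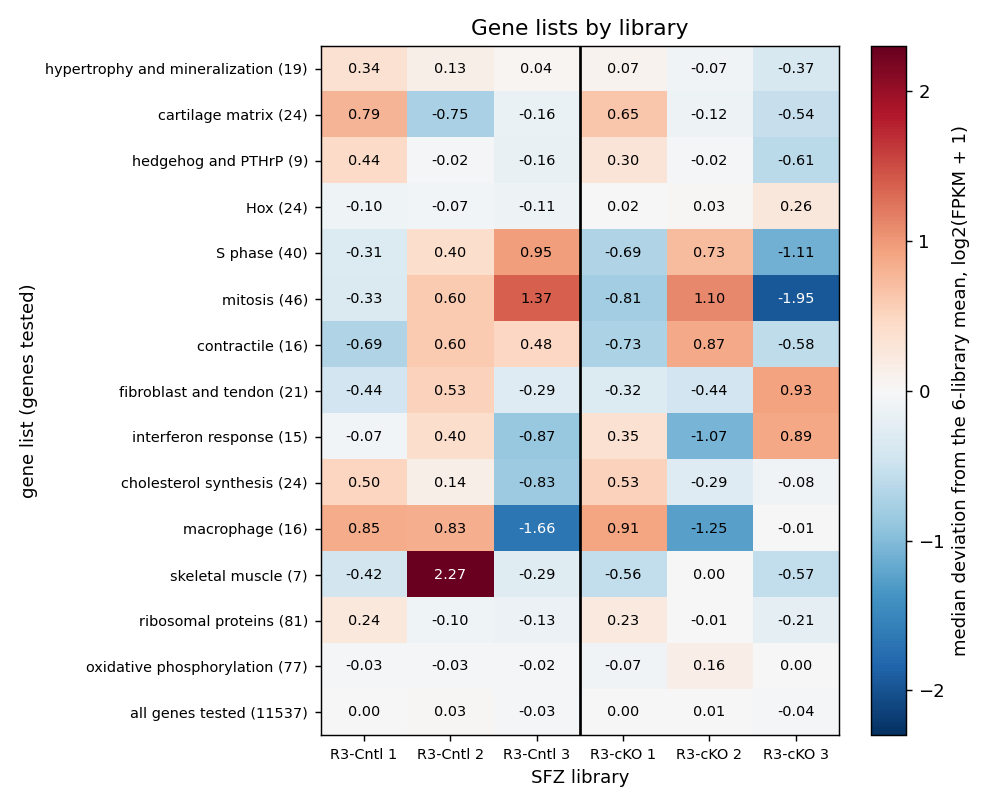
Rows are gene lists with the number of genes tested, columns the 6 SFZ libraries, and each cell is the median deviation of the list's genes from their 6-library mean in log2(FPKM + 1). Mitosis spans 1.37 to -1.95, skeletal muscle is high in R3-Cntl 2 alone, macrophage genes are low in R3-Cntl 3 and R3-cKO 2, and all genes together stay within 0.04 of 0.

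The counts followed the same libraries. With R3-cKO library 2 left out, 1213 genes had an unadjusted limma p under 0.05 (412 higher and 801 lower), and with R3-cKO library 3 left out 13 had. With any other library left out there were 24 to 100, and in each case 0 genes passed adjustment. Genes whose groups did not overlap numbered 3674 without R3-cKO library 2 and 596 to 1138 without any other library, counts that rise in part because 2 libraries overlap with 3 less readily. Of the 34 genes at an unadjusted p under 0.05, 18 were shared without R3-cKO library 2 and 9 without R3-cKO library 3. The other libraries gave similar shared counts, with 16 without R3-cKO library 1. Without R3-Cntl libraries 1, 2 and 3 in turn, 12, 9 and 14 were shared. Y-linked transcripts were near 0 in R3-cKO libraries 2 and 3, macrophage markers were low in R3-cKO library 2, and mitosis genes were lowest in R3-cKO library 3. Skeletal muscle markers were high in R3-Cntl library 2 alone. The part of these transcripts in the differences between genotypes was not tested. Sex, which the Y-linked transcripts mark, cannot be told apart from genotype where R3-cKO libraries 2 and 3 enter.

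**Figure D5:**
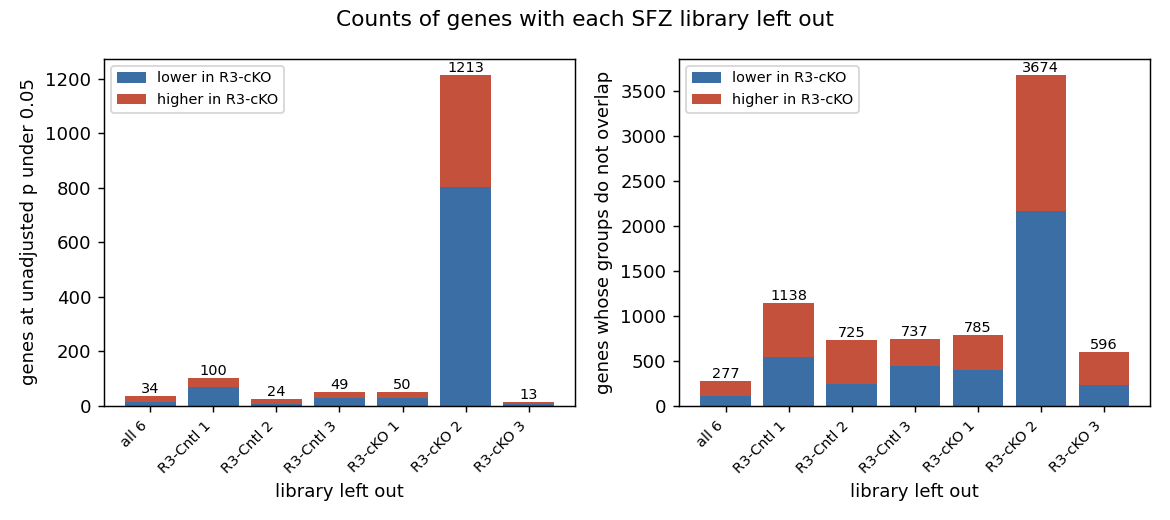
Stacked bars count genes at an unadjusted limma p under 0.05 (left) and genes whose groups did not overlap (right), lower and higher in R3-cKO, with all 6 SFZ libraries and with each left out in turn. The 1213 and 3674 genes without R3-cKO 2 stand above every other bar.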

How the data were processed

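SFZ and DZ chondrocytes of R3-Cntl and R3-cKO mice were profiled by RNA-seq with 3 libraries per group and zone, from 12 libraries in all. The study describes 3 individual mice per genotype, and p-values measure the spread between these libraries. The authors sequenced 100-bp paired-end reads on a BGISEQ-500 and mapped them to mm9, and the submitters' processing notes name Bowtie 0.12.2. The deposited table is named for TMM scaling and its values, taken from their sums and steps to be FPKM scaled between libraries by the authors, cover 17536 genes. Raw counts were not used here. For 60 genes the symbol was a date, missing or repeated and was taken from the Entrez ID.

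Values were analysed as log2(FPKM + 1) with limma 3.58.1 in R 4.3.3 (eBayes with trend, genotype as the only term), and two-sided p-values were adjusted by Benjamini-Hochberg over the 11537 genes with at least 1 FPKM in 3 of 6 SFZ libraries. Fold changes on this scale understate those of low genes. The fit was tested on simulated data in which 100 genes were changed by 1 log2 unit and another 100 by 2 log2 units. At 1 log2 unit, 56 of the 100 passed an adjusted p under 0.05 when drawn from all genes averaging at least 5 FPKM. When drawn from those of low spread, 85 passed. At 2 log2 units, 82 and 100 passed. The simulated spread was independent between genes, whereas many genes varied together across the SFZ libraries. These shares therefore do not tell how many real differences the comparison could detect.

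Named genes were the 12 most negative and 12 most positive log2 fold changes and the 6 widest gaps per direction among non-overlapping genes averaging at least 5 FPKM, those separated in both zones, the 12 most variable genes, the Runx factors, the markers of the comparison, and examples of gene lists. Members and lists were chosen with earlier results of these data known. Alternatives were other filters, pseudocounts and scalings, a model of all 12 libraries, the library number as a block, and each library left out.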

Additional observations from a re-analysis of the deposited data

How the results depend on the processing

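The values carry no counts, so counting error could not be told from other spread between the 3 libraries of a group. In every one of the 15 alternatives 0 genes passed an adjusted p under 0.05. The count at an unadjusted p under 0.05, 34 in the analysis described, was 143 with no filter, 15 at a mean of at least 10 FPKM, 54 after quantile normalization, 174 without R3-cKO libraries 2 and 3, and 13 to 1213 with 1 library left out. The 3 genes over 2-fold became 1 at a mean of at least 10 FPKM or with a pseudocount of 5, 7 with a pseudocount of 0.1, 26 without R3-cKO libraries 2 and 3, and 0 to 244 with 1 library left out. The 277 genes whose groups did not overlap became 433 with no filter, 128 at a mean of at least 10 FPKM, 5822 without R3-cKO libraries 2 and 3, and 596 to 3674 with 1 library left out, in part because fewer libraries overlap less readily and fewer genes pass a stricter filter. Other causes were not tested. Without R3-cKO libraries 2 and 3 that group had 1 library, so the spread came from R3-Cntl alone and the lone library was assumed to vary like them. Whether library numbers pair the samples of the 2 genotypes is not stated. The deviations of same-numbered libraries correlated at 0.79, -0.11 and -0.41, which cannot settle it. The fit with the library number as a block called 51 genes at an unadjusted p under 0.05, and 7 over 2-fold. With the block, the SE of the log2 fold change fell from 0.52 to 0.11 for Prg4 and rose from 0.29 to 0.32 for Mmp13.

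Of the 46 named genes that were followed through the alternatives, 35 kept their direction in every alternative in which they were tested. Without R3-cKO libraries 2 and 3 the log2 fold change turned to 0.58 for Runx3, 0.054 for Cbfb, 0.18 for Dlx5 and 0.43 for Vegfa, and that of Cbfb was 0.0035 with median-of-ratios size factors. With 1 library left out it ranged from -0.14 to 0.33 for Runx1, -0.36 to 0.41 for Runx3, -0.054 to 0.073 for Cbfb, -2.21 to 0.68 for Col10a1, -0.58 to 0.12 for Adamts5, -0.076 to 0.88 for Mmp2, -0.14 to 0.16 for Dlx5, -0.24 to 0.25 for Vegfa, -0.071 to 0.20 for Hoxa10, -0.056 to 0.074 for Hoxa11 and -0.24 to 0.18 for Hoxc10. With a pseudocount of 5 it kept its direction but shrank by over 1.5 times for genes that included Prg4 (-0.93), Tcf7 (-0.39), Col10a1 (-0.49), Fbxo36 (0.24), Rab3a (0.23), Ppox (0.19), Hoxa5 and Hoxa7 (0.25 each), and the list medians shrank likewise to -0.74 for mitosis, -0.44 for S phase and 0.07 for Hox genes.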
